A study of Caenorhabditis elegans with 10 samples.

Results

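The mec genes take their name from mechanosensory mutants, worms that no longer respond to a light touch on the body. The 10 genes described here are mec-1, mec-2, mec-3, mec-4, mec-6, mec-9, mec-10, mec-14, mec-17 and mec-18. They were chosen by symbol, among the WBGene identifiers of the deposited table of raw footprint counts, and are 10 of its 20182 genes. Ribosome footprints are the mRNA fragments that translating ribosomes shield from nuclease. They were sequenced from whole Caenorhabditis elegans of N2, the wild-type laboratory strain, with no other genotype or treatment. First-stage larvae, hatched overnight, were plated on NA22 bacteria and harvested every 2 h from 18 h to 36 h, with 1 library per time. No time has a replicate, and the labels do not say whether the libraries came from separate cultures.

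Gentle touch is sensed by a handful of touch receptor neurons along the body. In these cells the transcription factor UNC-86 switches on mec-3, and MEC-3 together with UNC-86 maintains the expression of the other touch genes. The transduction channel is built from the degenerin subunits MEC-4 and MEC-10, with MEC-2 and MEC-6 as further components of the complex. MEC-1 and MEC-9 are extracellular matrix proteins that attach the neurons or support transduction outside the cell. MEC-17 acetylates alpha-tubulin in the large-diameter microtubules of these neurons. Some of the genes are also used elsewhere: mec-3 acts in the PVD and FLP neurons, and mec-6 and mec-9 are expressed in other neurons as well.

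Footprints of 9 of the 10 genes fell between 18 h and 36 h. The fitted decreases ran from 2.15-fold for mec-2 to 3.27-fold for mec-6. The remaining gene, mec-14, had too few counts to be tested. None of the 9 was called as oscillating with the 8 h larval cycle. Calls come from edgeR's quasi-likelihood test over all 13958 genes that passed a filter on low counts, in a model that held linear time beside a cosine and sine wave repeating every 8 h. A call needed a Benjamini-Hochberg adjusted p under 0.05 and a change of at least 1 log2, either over the 18 h or from peak to trough. Over all tested genes, 10.8% fell, 15.7% rose and 22.7% oscillated by these rules. The median trend was -1.51 log2 for the 9 mec genes and -0.02 log2 for all tested genes. The mec trends lay between the 4.64th and the 12.5th percentile of all trends. In whole-worm libraries, fewer cells of a type and less RNA per cell cannot be told apart, and a level is a share of all footprints of the animal. Only footprints were analysed, so mRNA level and translation cannot be told apart either.

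Library totals ran from 16723638 to 33696423 counts, and TMM scaling factors from 0.828 at 36 h to 1.16 at 22 h. Levels below are CPM, counts scaled to 1000000 after TMM. Intervals given with a level are exact Poisson 95% intervals of that library's count and cover counting error only. Summed over fixed marker lists, all 22 pan-neuronal genes summed to 1079 CPM at 18 h and to 677 CPM at 36 h. The 10 germline genes together rose from 391 CPM to 1837 CPM in the same interval, with 8 of 10 called as rising. The 7 body-wall muscle genes summed to 17202 CPM at 18 h and to 19007 CPM at 36 h, with a lowest sum of 13511 CPM at 24 h. None of them was called as rising or falling. The 6 epidermal genes summed to 1985 CPM at 18 h and to 890 CPM at 36 h, with a median trend of -1.33 log2, 5 of 6 trends below 0, 1 of 6 called as falling and 3 as oscillating. The 4 pharyngeal muscle genes went from 563 to 352 CPM, with a median of -0.72 log2, 4 of 4 trends below 0, 1 called as falling and 3 as oscillating. The 7 intestinal genes went from 8077 to 6132 CPM, with a median of -0.04 log2 and 0 of 7 called as falling. Lower sums at 36 h than at 18 h were therefore seen outside the neuronal lists too, but these times are different phases of the 8 h cycle. In the same-phase libraries at 20 h, 28 h and 36 h, the epidermal sum was 834, 1013 and 890 CPM. There the pharyngeal muscle sum was 397, 498 and 352 CPM and the intestinal sum 6822, 7839 and 6132 CPM. The pan-neuronal sum was 1025, 758 and 677 CPM. Such sums follow their most abundant genes. The epidermal sum is weighted towards vab-10 (mean 1137 CPM, trend 0.19±0.26 log2), whereas the other 5 trends ran from -2.58 log2 (nhr-25) to -0.47 log2 (lin-26). The intestinal sum is weighted towards asp-1 and act-5 (means of 4345 and 1866 CPM). No difference between tissues was tested. The part of these shifts in the mec trends was not tested, apart from the scaling to neuronal genes described below.

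**Figure D1:**
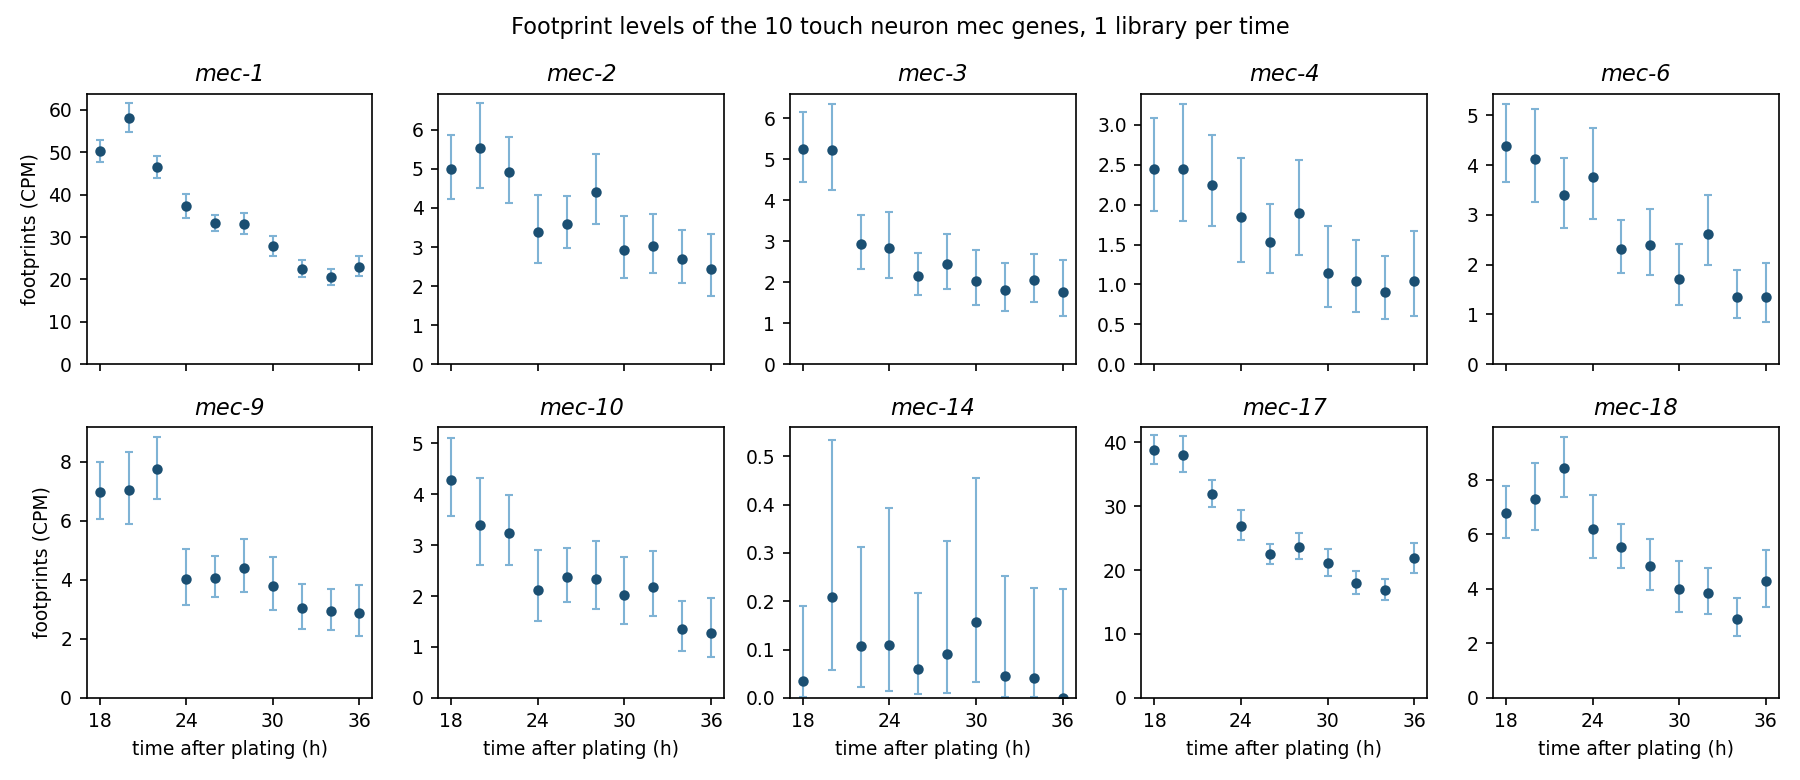
Footprint level (CPM, linear axis from 0, a different range in each panel) of each mec gene against time after plating (h), 1 library per point, with exact Poisson 95% intervals of the count. In the 9 panels other than that of mec-14, every point from 32 h to 36 h lies below every point from 18 h to 22 h; mec-14 holds 0 to 4 counts per library.

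The largest step of the selector gene mec-3 lay between 20 h and 22 h. Footprints of mec-3 (WBGene00003167), which encodes a LIM homeodomain transcription factor, stood at 5.24, 5.21, 2.93, 2.83, 2.16, 2.43, 2.03, 1.81, 2.04 and 1.77 CPM in the libraries from 18 h to 36 h. The libraries at 18 h and 20 h stood apart from all later ones: their lower limits were 4.45 and 4.24 CPM, whereas the highest upper limit from 22 h on was 3.71 CPM, at 24 h. These levels rest on 29 to 154 counts per library. The mean of 18 h to 22 h was 1.89 times that of 24 h to 30 h, which was 1.26 times that of 32 h to 36 h. The fitted trend was -1.57±0.26 log2 (SE of the fit over 10 libraries; edgeR adjusted p = 0.00162). Whether mec-3 declined earlier than the other mec genes was not tested.

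The channel subunits were among the least abundant members. MEC-4 (gene mec-4, WBGene00003168) and MEC-10 (mec-10, WBGene00003174) are degenerins of the DEG/ENaC sodium channel family. Levels of mec-4 were 2.45, 2.45, 2.25, 1.85, 1.53, 1.89, 1.14, 1.04, 0.90 and 1.04 CPM from 18 h to 36 h, on 17 to 72 counts. The 4 libraries from 30 h on were the lowest. Those of mec-10 were 4.29, 3.39, 3.25, 2.12, 2.37, 2.34, 2.03, 2.17, 1.35 and 1.28 CPM, on 21 to 126 counts. Its 3 earliest libraries were the highest and its last pair the lowest, with a flat stretch from 24 h to 32 h. Trends were -1.56±0.23 log2 for mec-4 (edgeR adjusted p = 0.000953) and -1.53±0.26 log2 for mec-10 (adjusted p = 0.00179). Per kilobase of coding sequence, mec-10 exceeded mec-4 in every library, by 1.22-fold to 2.21-fold with a median of 1.56-fold. This ratio showed no steady course: its extremes fell at 24 h and 32 h.

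The other components of the complex fell as well. MEC-2 is a stomatin-like membrane protein that binds cholesterol and increases channel activity. Levels of mec-2 (WBGene00003166) were 5.00, 5.53, 4.93, 3.37, 3.60, 4.42, 2.91, 3.03, 2.70 and 2.45 CPM, with a trend of -1.11±0.21 log2 (edgeR adjusted p = 0.00309). This was the shallowest of the 9 trends, and it fell below the required size, at -0.94 log2, when the 36 h library was left out. MEC-6, a membrane protein related to mammalian paraoxonases, is needed for channel activity. Levels of mec-6 (WBGene00003170) were 4.39, 4.12, 3.39, 3.75, 2.31, 2.39, 1.72, 2.62, 1.35 and 1.34 CPM, with the steepest trend, -1.71±0.27 log2 (adjusted p = 0.00141). The 4 earliest libraries were the highest, and the 32 h library stood above those at 30 h and 34 h. The trends of mec-6 and mec-2 differed by 0.60 log2 with a combined SE of 0.34, and no difference between members was tested.

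The 2 genes of the extracellular matrix also declined. The most abundant member in CPM was mec-1 (WBGene00003165), which encodes a large secreted protein with EGF and Kunitz domains needed for the attachment of the touch neurons to the epidermis. Its levels were 50.2, 58.2, 46.5, 37.2, 33.3, 33.2, 27.8, 22.5, 20.5 and 23.0 CPM, on 377 to 1476 counts. Apart from the first and the last step, no library exceeded the one before it. The trend was -1.49±0.10 log2 (edgeR adjusted p = 6.5e-06), the smallest error of the 9. MEC-9 is likewise secreted and carries EGF and Kunitz domains. Levels of mec-9 (WBGene00003173) were 6.98, 7.04, 7.74, 4.03, 4.08, 4.42, 3.80, 3.03, 2.94 and 2.87 CPM. The 3 libraries through 22 h lay at or above 5.90 CPM at their lower limits, and the 7 later ones at or below 5.38 CPM at their upper limits. Its trend was -1.51±0.20 log2 (adjusted p = 0.000415), and the mean of 18 h to 22 h was 1.78 times that of 24 h to 30 h.

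Inside the cell, the gene of the tubulin acetyltransferase had the highest mean level per kilobase of the longest coding sequence. Levels of mec-17 (WBGene00003178) were 38.8, 38.1, 31.9, 26.99, 22.5, 23.7, 21.1, 18.0, 16.8 and 21.8 CPM, on 357 to 1140 counts. The lowest library was that at 34 h, and the level at 36 h was above it and above those at 30 h and 32 h. The trend was -1.14±0.15 log2 (edgeR adjusted p = 0.000413), or -0.99 log2 without the 18 h library, just under the required size. Of the enzymes acting on the same mark, which were fixed as a short list, neither was called as falling or oscillating. The paralogous acetyltransferase gene atat-2 (WBGene00021059) had a trend of -0.40±0.17 log2 and the deacetylase gene hda-6 (WBGene00018319) one of 0.26±0.08 log2. Over the 8 h cycle atat-2 differed by 0.99±0.16 log2 (edgeR adjusted p = 0.00636), just under the required size. MEC-18, a protein related to luciferases and coenzyme A ligases, is needed for touch sensitivity. Levels of mec-18 (WBGene00003179) were 6.77, 7.30, 8.42, 6.20, 5.52, 4.82, 4.01, 3.84, 2.90 and 4.28 CPM, with a peak at 22 h, a minimum at 34 h and a trend of -1.26±0.24 log2 (adjusted p = 0.00318).

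Footprints of mec-14 (WBGene00003176), which encodes a protein related to aldo-keto reductases, were at the limit of detection. Its counts were 1, 4, 3, 2, 2, 2, 3, 1, 1 and 0 in the libraries from 18 h to 36 h. The count of 0 at 36 h allows a level of up to 0.183 CPM when a limit of 3 counts is used, or 0.226 CPM at the upper end of its two-sided exact Poisson 95% interval. The highest value, 0.209 CPM at 20 h, has an interval of 0.0568 to 0.534 CPM. No change over time was detectable at this depth.

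Per kilobase of the longest coding sequence, mean levels over the 10 libraries spread widely. In descending order they were 33.04±9.97 CPM per kb for mec-17 (SD over 10 libraries, the decline included) and 5.85±2.12 CPM per kb for mec-1. Then came mec-3 at 2.96±1.36, mec-18 at 2.83±0.91, mec-6 at 2.42±0.99 and mec-9 at 1.87±0.74 CPM per kb. At the bottom were mec-10 at 1.13±0.43, mec-2 at 1.02±0.29, mec-4 at 0.718±0.263 and mec-14 at 0.0626±0.0461 CPM per kb. Within libraries, mec-17 exceeded mec-1 in 10 of 10, by 5.02-fold to 7.25-fold, and mec-1 exceeded mec-3 in 10 of 10. Neighbours in the middle of the order changed places: mec-3 was above mec-18 in 5 of 10 libraries, mec-18 above mec-6 in 7 and mec-10 above mec-2 in 7. Coding lengths are from the Ensembl release 115 annotation. The order depends on the isoform taken, since mec-1, mec-2, mec-3, mec-9 and mec-17 have 10, 17, 3, 2 and 2 coding lengths. With the shortest coding sequence, the mean level would be 47.6 CPM per kb for mec-17, 46.1 for mec-1, 3.99 for mec-2, 3.41 for mec-3 and 3.12 for mec-9. The value of mec-1 then exceeds that of mec-17 with its longest sequence, and mec-2 and mec-9 stand above mec-18 and mec-6.

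The declines were seen between libraries of the same phase of the cycle. Comparing each library with that taken 8 h earlier gives 6 pairs per gene, and 53 of the 54 values of the 9 genes were negative. The exception was mec-10 from 24 h to 32 h, at 0.03 log2. In the pair from 18 h to 26 h the median of the 9 genes was -0.77 log2 and in the pair from 28 h to 36 h it was -0.62 log2, with medians of all tested genes at -0.0042 and 0.0185 log2. Of the mec genes, 8 of 9 were lower in all 6 pairs, as were 13.3% of all tested genes. Every library from 32 h to 36 h was below every library from 18 h to 22 h for all 9 genes, as for 18% of all tested genes.

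Against this decline, the 8 h cycle was small. Fitted peak-to-trough differences of the 9 genes ran from 0.08 log2 for mec-10 to 0.44 log2 for mec-9, and all 9 were below the median of all tested genes, 0.59 log2. By edgeR's test 0 of 9 were called, as also by DESeq2 and limma, and 1 had an unadjusted p under 0.05. That gene, mec-1, had an edgeR adjusted p of 0.0383 with a difference of 0.35±0.09 log2, too small for a call, and 34.4% of all tested genes had an adjusted p under 0.05 at any size. For the other 8 genes the adjusted p was 0.187 or more. These tests rest on 17 to 236 counts per library for the 7 least abundant tested genes, so a small cycle may not have been detectable at this depth.

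**Figure D2:**
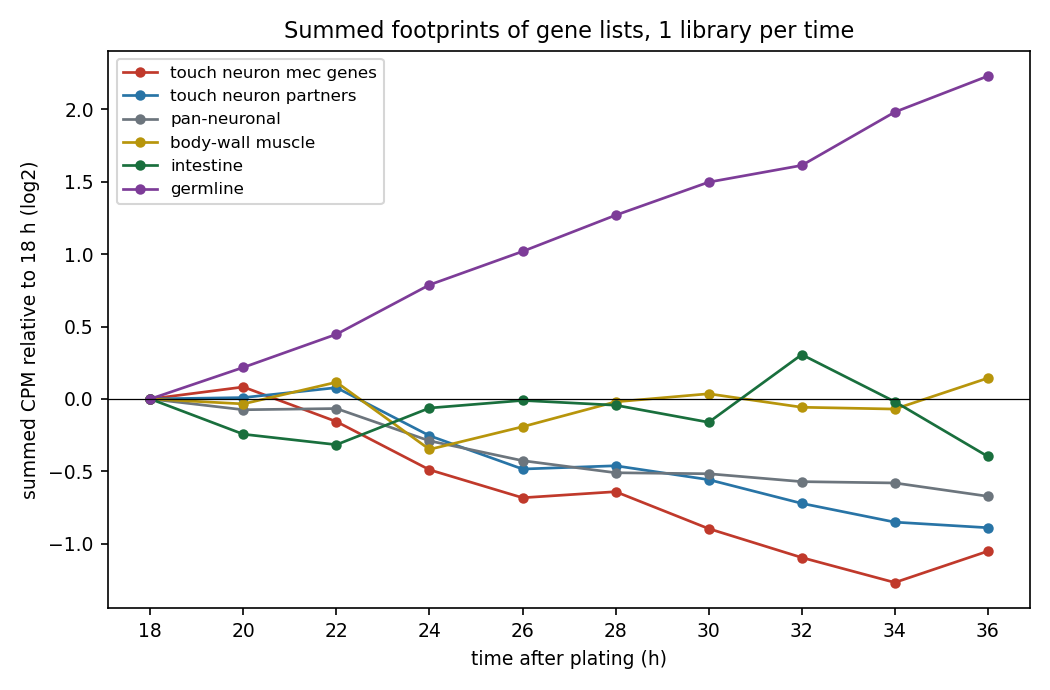
Summed CPM of gene lists relative to 18 h (log2) against time after plating (h), 1 library per point. The mec genes (124 CPM at 18 h, 59.9 CPM at 36 h), their partners, the pan-neuronal and the intestinal genes end below their starting level. The intestinal genes end at 0.76 times theirs, the body-wall muscle genes at 1.10 times and the germline genes at 4.69 times.

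Other genes linked to the touch neurons, regulators among them, showed the same direction. A list of 14 touch neuron partners was chosen by symbol, with earlier results of these data known, and 12 of them were tested. Of these, 6 fell, 0 rose and 0 oscillated, with a median trend of -1.13 log2, and 12 of 12 fitted trends were below 0. Over all tested genes 10.8% fell and the median trend was -0.02 log2. With total counts alone 9 of the 12 fell. Scaled to the summed pan-neuronal counts, as described below, 1 fell (median -0.42 log2), and with their geometric mean 0 did (median -0.23 log2). The touch-neuron tubulins declined: mec-7 (WBGene00003171), the beta-tubulin of the large-diameter microtubules, stood at 73.1 CPM in the first and 27.2 CPM in the last library (trend -1.64±0.09 log2, edgeR adjusted p = 2.65e-06). The alpha-tubulin gene mec-12 (WBGene00003175), whose product MEC-17 acetylates, went from 130 to 68.4 CPM (-1.18±0.12 log2, adjusted p = 9.11e-05) and was the most abundant partner. Of the regulators, unc-86 (WBGene00006818), the POU homeodomain gene upstream of mec-3, fell from 12.5 to 3.79 CPM (-1.81±0.17 log2, adjusted p = 5.32e-05). The homeodomain gene alr-1 (WBGene00044330), which promotes touch neuron fate, had a trend of -1.38±0.17 log2 (adjusted p = 0.000312). Markers of PVD and FLP, the other neurons that use mec-3, gave 4 of 5 called as falling, with a median of -1.27 log2. The summed level of these 5 genes was highest at 22 h, at 53.2 CPM, and lowest at 34 h, at 17.9 CPM. The receptor gene dma-1, the claudin-like gene hpo-30 and the acetylcholine receptor subunits deg-3 and des-2 had trends of -1.53±0.36, -1.15±0.35, -1.27±0.32 and -1.28±0.35 log2.

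Most relatives of the channel proteins had trends below 0, and some were called as oscillating. Among the degenerin, ASIC and related channel genes other than the members, 9 of 23 tested genes fell, 0 rose and 6 oscillated, with a median trend of -1.05 log2 and 19 of 23 trends below 0. The most abundant, del-6 (WBGene00011891), differed by 6.36±0.75 log2 over the cycle, acd-2 by 3.31±0.49 log2 and del-3 by 2.50±0.50 log2. A falling trend of -2.57±0.55 log2 was fitted for del-2. Of the stomatin-like genes, 5 of 8 tested fell, 1 rose and 1 oscillated, with a median trend of -1.22 log2 and 7 of 8 trends below 0. The gene unc-1, a stomatin needed for normal locomotion, fell by 1.41 log2, sto-6 by 2.03 log2 and sto-4 by 1.49 log2. By contrast sto-1 rose by 2.12±0.30 log2 and oscillated by 1.48±0.28 log2. The most abundant of this list, stl-1, was not called (-0.23±0.11 log2). No difference between these lists and the partners was tested.

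**Figure D3:**
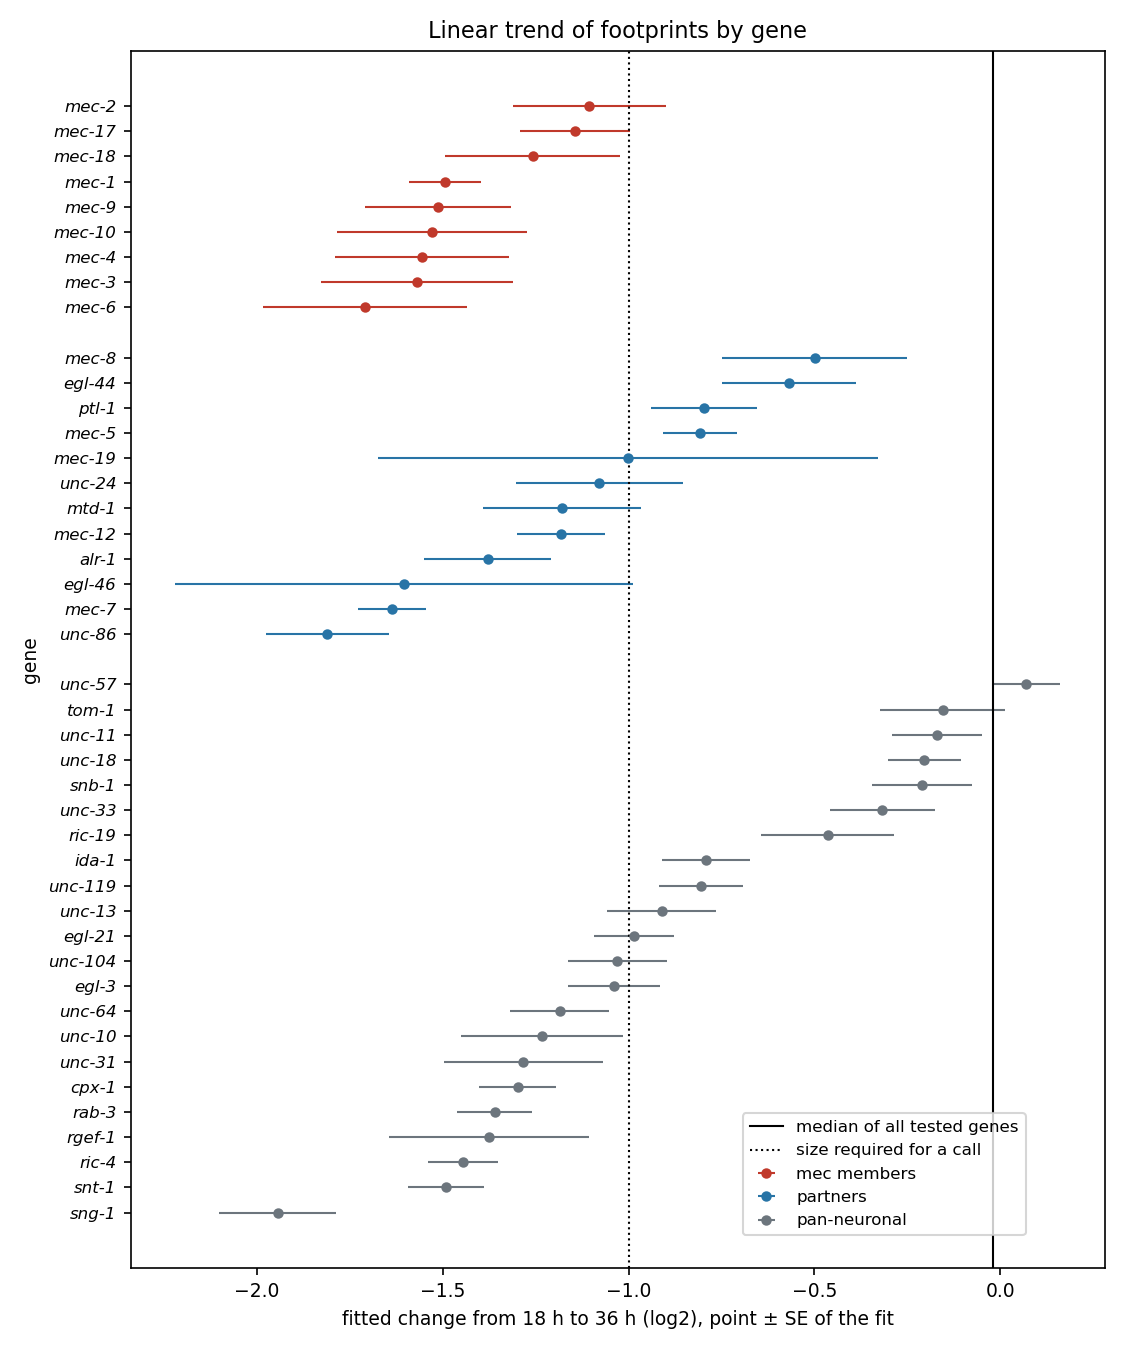
Fitted change from 18 h to 36 h (log2, point ± SE of the fit) of the 9 tested mec genes, 12 tested partners and 22 pan-neuronal genes, with the median of all tested genes (solid line) and the size required for a call (dotted line). All 9 mec genes lie left of the dotted line, and the pan-neuronal genes spread from -1.94 to 0.07 log2.

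The pan-neuronal genes, like the epidermal and pharyngeal muscle genes above, had a median trend below 0. Of the 22 pan-neuronal genes, 11 fell, 0 rose and 0 oscillated, with a median trend of -1.01 log2. The synaptic vesicle genes sng-1 and snt-1, the SNAP-25 gene ric-4 and the exchange factor gene rgef-1 had trends of -1.94±0.16, -1.49±0.10, -1.45±0.09 and -1.38±0.27 log2. The most abundant, the proprotein convertase gene egl-3, fell by 1.04±0.12 log2, whereas unc-57, tom-1, unc-11, unc-18 and snb-1 had trends between -0.21 and 0.07 log2 and were not called. The mec trends lay within the range of the pan-neuronal genes, but the lower end of that range is sng-1 alone. The next steepest pan-neuronal gene was snt-1. Trends steeper than that of snt-1 were fitted for mec-6, mec-3, mec-4, mec-10 and mec-9. That of mec-1 was alike, and those of mec-18, mec-17 and mec-2 were shallower. No difference was tested. The summed mec level was 11.5% of the summed pan-neuronal level at 18 h and 8.85% at 36 h, between a highest value of 12.8% at 20 h and a lowest of 7.15% at 34 h.

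To set the mec genes against neurons rather than the whole animal, the fit over all genes was repeated with pan-neuronal counts in place of the library size, an alternative chosen after the data had been seen. Scaled to the summed pan-neuronal counts, all 9 trends were still below 0, from -0.995 log2 for mec-6 to -0.39 log2 for mec-2, and 7 of 9 passed an edgeR adjusted p under 0.05, as did 4.96% of all tested genes in the falling direction. The exceptions were mec-2 (adjusted p = 0.175) and mec-18 (adjusted p = 0.0839). This scaling moved the median of all tested genes to 0.68 log2, which in itself lowers the share of all genes passing in the falling direction. The median was -0.80 log2 for the 9 mec genes, -0.30 log2 for the 22 pan-neuronal genes and -0.42 log2 for the 12 tested partners. Pan-neuronal genes also passed in the falling direction: sng-1 (-1.23 log2), ric-4 (-0.74 log2), snt-1, rab-3, cpx-1, unc-31, unc-64, egl-3 and egl-21. Others passed in the rising direction: unc-57 (0.77 log2), tom-1, unc-11, unc-18, snb-1 and unc-33. These genes make up the scale itself, so falls and rises among them, and their median, follow in part from the scaling. Of the partners, mec-7, mec-12, unc-86 and alr-1 passed in the falling direction and the other tested ones in neither. Whether the mec genes fell more than other neuronal genes was not tested. The sum is weighted towards the abundant egl-3, egl-21 and snb-1. The geometric mean, in which each pan-neuronal gene counts alike, moved the median of all tested genes further, to 0.87 log2. With it, 5 of 9 mec genes passed, against 3.47% of all tested genes. These were mec-1 (-0.60±0.11 log2), mec-3 (-0.68±0.26 log2), mec-4 (-0.66±0.25 log2), mec-6 (-0.81±0.28 log2) and mec-9 (-0.62±0.18 log2), and mec-17 was at -0.25±0.15 log2 (adjusted p = 0.166). None of the 9 reached 1 log2 under either scaling, so none was called as falling against neuronal genes; with the sum, 2.84% of all tested genes were.

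**Figure D4:**
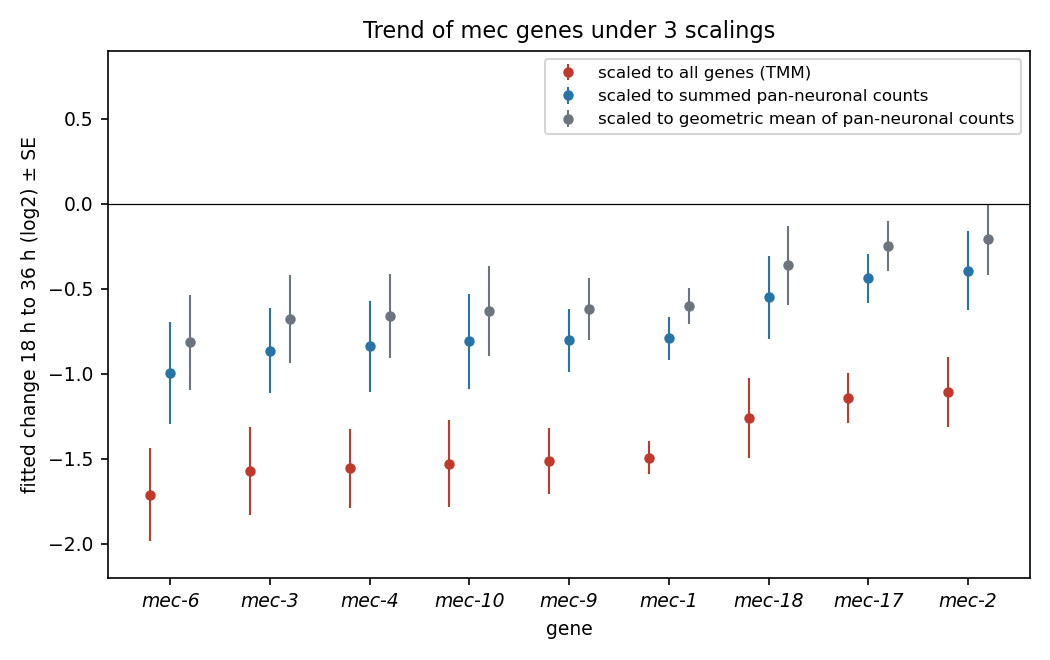
Fitted change from 18 h to 36 h (log2 ± SE) of the 9 tested mec genes scaled to all genes, to the summed and to the geometric mean of the pan-neuronal counts. All points lie below 0, and those scaled to neuronal genes lie between -0.995 and -0.21 log2.

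The mec genes had similar courses, less so once the linear decline was removed. Over the 36 pairs of the 9 genes, Pearson's r of log2 CPM across the 10 libraries ran from 0.73 (mec-3 and mec-18) to 0.97 (mec-1 and mec-4), with a median of 0.89. After removal of each gene's linear trend the median was 0.21, and r ran from -0.33 for mec-6 and mec-9 to 0.78 for mec-1 and mec-17. All these values share the same libraries and scaling, and for genes of low count they also hold counting noise. Among 7785 genes that carry a gene-class name and average 10 counts or more, the courses most like that of mec-1 were those of madd-4 (r = 0.99), seb-3 (r = 0.99) and rab-3 (r = 0.98). There were 89 genes, 1.14%, with r over 0.95. Most like mec-6, the member with the steepest trend, were nlp-35 (r = 0.98), ndx-1 (r = 0.97) and lgc-4 (r = 0.96).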

How the data were processed

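Ribosome footprints of whole worms were counted in 10 libraries, 1 per time point. The authors deposited raw counts per gene and normalized log2 values; the latter equal the counts scaled to the mean library total with 8 added, to within 5e-05 log2. Bowtie is named, with no version, per the submitters' processing notes; the sources used here name no genome build, annotation, strand or counting rule. Symbols and coding lengths came from Ensembl release 115, which held 19513 of 20182 identifiers. In it, 7 of the 10 mec genes share exon bases with a gene on the other strand, at most 10.7% of their exon length (mec-18).

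Genes entered the test if at least 3 libraries exceeded the CPM that 10 counts make in a library of median size. The edgeR 4.0.16 fit (R 4.3.3, TMM, robust quasi-likelihood) had 4 terms, an intercept, linear time and an 8 h cosine and sine, and 6 residual degrees of freedom; p-values measure scatter around that curve. The fit was tested on simulated data. Alternatives used limma 3.58.1, DESeq2 1.42.0, other scalings, filters, periods and terms, and left out each library in turn. The named genes are all members and, of each list, up to 4 called genes with the largest change and the most abundant. Pan-neuronal genes near 0, epidermal and intestinal genes and those passing when scaled to neuronal counts were named after their values were seen. For likeness, the most abundant member and the one with the steepest trend were each compared with 7785 tested genes, and the closest 3 given. These genes carry a gene-class name and average 10 counts or more. Members and lists were chosen with earlier results of these data known. The listed partner mec-15 was not analysed here.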

Additional observations from a re-analysis of the deposited data

How the results depend on the processing

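Over 23 alternatives fixed in advance, all 206 fitted mec trends were below 0 and 204 remained called; the exceptions were mec-2 without the 36 h library (-0.94 log2) and mec-17 without the 18 h library (-0.99 log2). The alternative with no minimum size repeats the main fit without the size rule, so it could change no trend and lose no call. With a mean of at least 50 counts 8 mec genes were tested as mec-4 was left out. The mec count falling was 0 with either scaling to pan-neuronal counts, chosen after the data were seen, which moved the median of all genes to 0.68 (sum) and 0.87 log2 (geometric mean); over all genes 4158 and 5561 then rose and 397 and 265 fell. With total counts alone that median was -0.33 log2 and 2437 genes fell, 55.7% of the trend calls against 40.8% with TMM; all 9 mec genes remained called. With a mean of at least 50 counts, 1313 genes rose and 940 fell. With no minimum size 2635 genes fell, 4796 oscillated and the mec count oscillating was 1 (mec-1). With time left out 2062 genes oscillated. No paired analysis was possible because each time has 1 library and the labels give no replicate numbers. For mec-14, with 0 to 4 counts per library, depth is the limit. A cycle under 1 log2 is not called at any depth.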
